A study of Mus musculus with 16 samples.

Results

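Fos, Fosb, Jun, Junb, Jund, Egr1, Ier2, Atf3, Btg2 and Dusp1 are 10 immediate early genes whose RNA is known to climb when tissue is dissociated into single cells. They were chosen by symbol and make up 10 of the 17097 genes measured, each represented by the brightest of its probe sets, judged by the mean of all 16 arrays. The arrays carry RNA of adipose tissue macrophages from pools of mice aged 19 to 21 weeks, in 4 groups of 4 pools each. The groups are KO-LysM visceral fat (KO VAT), KO-LysM subcutaneous fat (KO SAT), WT visceral fat (WT VAT) and WT subcutaneous fat (WT SAT), and day 2 and day 1 each hold 2 pools of every group. Mice of both genotypes carry floxed alleles of Sucnr1, the receptor for succinate, per the series description. Only the knockout carries Cre, under control of lysozyme M (Lyz2), a gene of myeloid cells in general and not of macrophages alone. The labels do not say how many mice made a pool, and all of them carry the letters NCD, which are not spelled out.

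Fat was digested with 0.1% collagenase for 1 h at 37 °C, and cells were held by CD11b beads according to 1 label and described as F4/80+ in another. RNA of 300000 cells then went through 24 amplification cycles before hybridisation. No sample of undigested tissue is part of the data, so the rise of these genes during digestion itself was not measured.

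Immediate early genes are switched on within minutes of a stimulus by factors that the cell already holds, without new protein synthesis. MAP kinases carry the signal to serum response factor, CREB and similar proteins on the promoters, and the products then act on later genes. Fos and Jun proteins pair through leucine zippers into the AP-1 factor, Egr1 is a zinc finger factor, and Dusp1 removes phosphate from MAP kinases and so closes the loop. Macrophages use the same genes when they meet microbial or inflammatory signals.

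The promoter windows of RefSeq (GRCm38.p6, from 250 bases before to 50 after the gene start) held 8 of the 10 genes. A CRE, the site bound by CREB and written TGACGTCA, was found in the windows of Btg2 and Dusp1, and 1.79% of the 32851 windows hold one. An Egr site, GCGNGGGCG, was found in those of Fosb and Btg2, against 5.55% of all windows. A TATA box, TATAAA, was found in those of Fos, where it starts at base -33, and Junb, where it starts at base 1 of the transcript, against 13.6% of all windows. Both strands were searched, and no 2 of these matches overlap. The AP-1 site TGANTCA, held by 7.81% of all windows, the NF-kB site, held by 1.63%, and the CArG box, the site of serum response factor, held by 1.63%, were not found in the 8 windows. Only full matches were counted. Variants of a site and sites farther than 250 bases before the start were not searched, so these genes may carry such sites. Egr1 and Ier2 had no window. The windows of Fos, Fosb, Junb, Btg2 and Dusp1 are shown because they carry these matches, which are in capitals. Fos lies at chr12:85473640-85473939 (plus strand), Fosb at chr7:19309996-19310295 (minus strand), Junb at chr8:84978699-84978998 (minus strand), Btg2 at chr1:134079106-134079405 (minus strand) and Dusp1 at chr17:26508423-26508722 (minus strand).
Fos: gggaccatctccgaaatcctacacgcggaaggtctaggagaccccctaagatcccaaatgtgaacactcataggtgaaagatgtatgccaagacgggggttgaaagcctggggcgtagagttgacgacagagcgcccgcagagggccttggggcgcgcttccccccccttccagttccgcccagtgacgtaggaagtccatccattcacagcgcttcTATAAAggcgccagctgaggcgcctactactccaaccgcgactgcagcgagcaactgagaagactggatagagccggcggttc
Fosb: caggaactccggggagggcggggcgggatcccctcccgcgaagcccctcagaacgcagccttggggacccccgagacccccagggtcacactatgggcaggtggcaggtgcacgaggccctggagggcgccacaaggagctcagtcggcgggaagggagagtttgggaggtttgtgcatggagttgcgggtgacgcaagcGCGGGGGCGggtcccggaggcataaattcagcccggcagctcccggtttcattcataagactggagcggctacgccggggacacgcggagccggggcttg
Junb: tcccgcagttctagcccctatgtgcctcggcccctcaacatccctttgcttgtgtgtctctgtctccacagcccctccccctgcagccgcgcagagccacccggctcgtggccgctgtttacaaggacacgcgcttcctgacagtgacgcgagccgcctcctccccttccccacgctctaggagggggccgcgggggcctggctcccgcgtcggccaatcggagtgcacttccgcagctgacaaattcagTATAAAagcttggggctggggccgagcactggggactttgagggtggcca
Btg2: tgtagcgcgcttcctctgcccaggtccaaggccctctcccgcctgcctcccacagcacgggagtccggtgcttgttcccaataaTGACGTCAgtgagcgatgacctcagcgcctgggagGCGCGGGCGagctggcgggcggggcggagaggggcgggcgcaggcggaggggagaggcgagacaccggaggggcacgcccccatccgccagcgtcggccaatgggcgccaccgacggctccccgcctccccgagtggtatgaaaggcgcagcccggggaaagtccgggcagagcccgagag
Dusp1: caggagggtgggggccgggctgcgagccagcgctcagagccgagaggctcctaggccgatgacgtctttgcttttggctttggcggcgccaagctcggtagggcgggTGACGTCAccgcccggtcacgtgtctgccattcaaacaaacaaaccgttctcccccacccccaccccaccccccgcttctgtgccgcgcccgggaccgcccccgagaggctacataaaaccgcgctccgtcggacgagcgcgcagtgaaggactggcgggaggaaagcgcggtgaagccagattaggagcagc

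The spread of values differed between arrays in step with genotype and with day, and this touches every result below. The interquartile range of all probe sets on an array averaged 2.503 ± 0.109 log2 units on the KO arrays and 2.251 ± 0.186 on the WT arrays (SD, n = 8 each; exact permutation test, two-sided, p = 0.007). It averaged 2.477 ± 0.182 on day 2 and 2.277 ± 0.164 on day 1 (SD, n = 8 each; exact permutation test, two-sided, p = 0.0389). On wider arrays bright genes read higher and dim genes lower. Over the 6660 genes at least as bright on average as Ier2, the dimmest of the 10, the median log2 difference was 0.22 for KO minus WT and 0.24 for day 2 minus day 1. Over all genes these medians were -0.05 and 0.01. Sucnr1 lay between 3.41 and 3.65 on the KO arrays and between 3.35 and 3.61 on the WT arrays, under the background of 4.78 (95th percentile of 41 olfactory receptor genes), so it does not check the genotype.

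All 10 genes were above that background on all 16 arrays, and 5 of them were among the brightest signals of the array. Their means over all arrays are single probe set values, which cannot be ordered between genes, but each can be placed among all probe sets. Egr1 was at percentile 97.9, Dusp1 at 97.7, Atf3 at 96.9, Fos at 96.5 and Jund at 95.3. Fosb at 89.5, Jun at 86.1, Btg2 at 78.1, Junb at 73.7 and Ier2 at 70.8 followed. WT VAT pool 1, the array of smallest spread (2.006), was the lowest array for 8 of the 10 genes, the exceptions being Ier2 and Atf3. WT VAT pool 4, at a spread of 2.536, was the highest array for Fos, Fosb, Jund and Ier2.

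**Figure D1:**
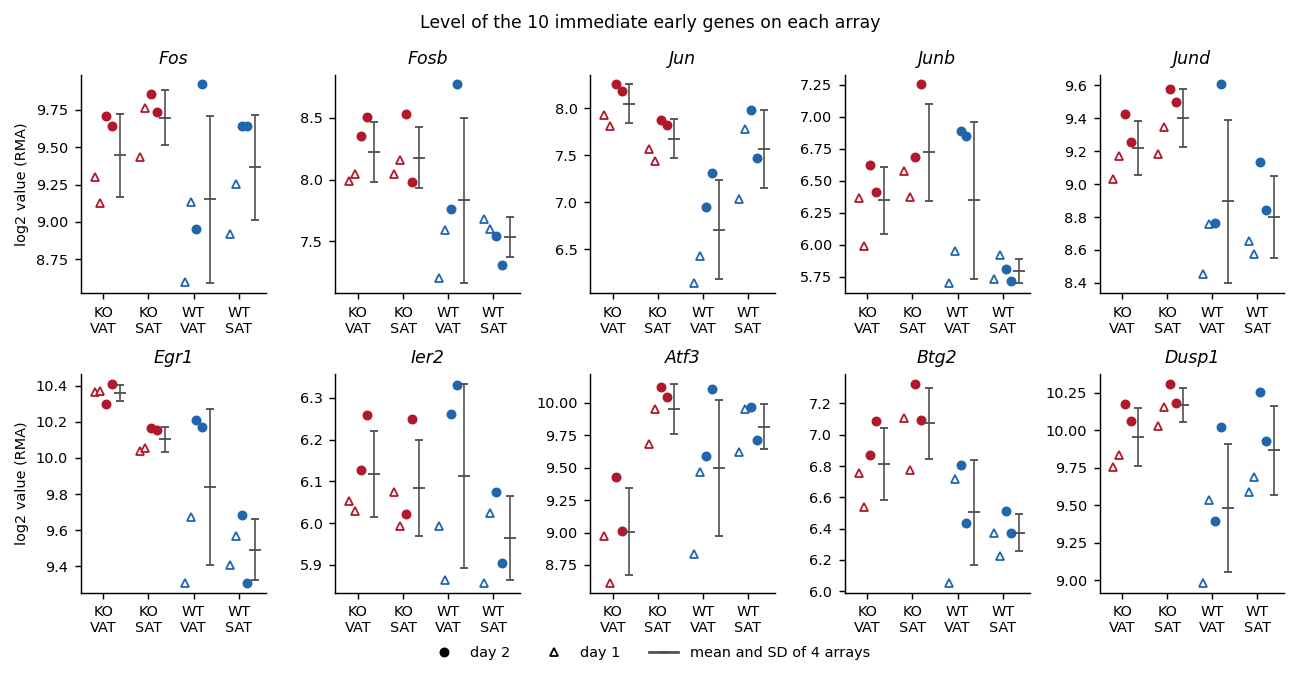
Log2 value (RMA) of each of the 10 genes on each of the 16 arrays, by group; filled circles are day 2, open triangles day 1, and the bar is the mean and SD of 4 arrays. Each panel has its own scale, which does not start at 0. Egr1 lies between 10.30 and 10.41 on KO VAT arrays and between 9.31 and 10.21 on WT VAT arrays.

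Fos, the founding AP-1 subunit, had log2 values of 9.30, 9.13, 9.71 and 9.64 in KO VAT pools 1 to 4, against 8.60, 9.13, 8.95 and 9.92 in WT VAT. It had 9.43, 9.76, 9.86 and 9.73 in KO SAT, against 8.92, 9.25, 9.64 and 9.64 in WT SAT. The genotypes overlapped in both depots, and the WT VAT pools spanned the widest range of the 4 groups. Fosb, its paralogue with the same zipper, had 7.99, 8.05, 8.35 and 8.50 in KO VAT, against 7.20, 7.59, 7.76 and 8.77 in WT VAT. Fosb had 8.04, 8.16, 8.53 and 7.98 in KO SAT, against 7.68, 7.60, 7.55 and 7.31 in WT SAT. All 4 KO SAT arrays thus lay above all 4 WT SAT arrays for Fosb, while in VAT WT pool 4 was the highest array. The KO SAT arrays also lay above the WT SAT arrays in spread, at 2.371 to 2.629 against 2.117 to 2.289. How many of all genes separate the groups without overlap was not counted, here or for the genes below.

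Jun, the main partner of Fos, had 7.93, 7.82, 8.25 and 8.19 in KO VAT, against 6.14, 6.43, 6.95 and 7.31 in WT VAT. It had 7.57, 7.44, 7.88 and 7.82 in KO SAT, against 7.04, 7.78, 7.98 and 7.47 in WT SAT. The groups did not overlap in VAT and overlapped in SAT, and WT VAT held the 3 lowest arrays of the series. Junb, which pairs like Jun but is the weaker activator, had 6.36, 5.99, 6.62 and 6.41 in KO VAT, against 5.70, 5.95, 6.89 and 6.85 in WT VAT. Junb had 6.57, 6.37, 6.68 and 7.25 in KO SAT, against 5.73, 5.92, 5.81 and 5.72 in WT SAT. Here the groups did not overlap in SAT, and the WT VAT pools fell into 2 low arrays of day 1 and 2 high arrays of day 2. Jund, the Jun gene that resting cells keep on, had 9.03, 9.17, 9.43 and 9.26 in KO VAT, against 8.45, 8.76, 8.77 and 9.61 in WT VAT. Jund had 9.18, 9.35, 9.58 and 9.50 in KO SAT, against 8.66, 8.57, 9.13 and 8.84 in WT SAT, with no overlap in SAT.

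Atf3, a stress factor that pairs with Jun proteins and often represses, had 8.98, 8.61, 9.43 and 9.01 in KO VAT, against 8.84, 9.46, 9.59 and 10.11 in WT VAT. It had 9.68, 9.95, 10.12 and 10.04 in KO SAT, against 9.62, 9.95, 9.97 and 9.72 in WT SAT. Both SAT groups and 3 of the 4 WT VAT pools were above every KO VAT array. Egr1 had 10.36, 10.37, 10.30 and 10.41 in KO VAT, against 9.31, 9.67, 10.21 and 10.17 in WT VAT. Egr1 had 10.04, 10.05, 10.17 and 10.15 in KO SAT, against 9.41, 9.57, 9.68 and 9.31 in WT SAT. The KO pools were close to each other in each depot and did not overlap with the WT pools of the same depot.

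Dusp1, the MAP kinase phosphatase, had 9.76, 9.84, 10.18 and 10.06 in KO VAT, against 8.98, 9.54, 9.39 and 10.02 in WT VAT. It had 10.03, 10.16, 10.31 and 10.18 in KO SAT, against 9.59, 9.69, 10.25 and 9.93 in WT SAT. The genotypes overlapped in both depots. Btg2, which slows cell division and helps remove mRNA tails, had 6.75, 6.54, 6.87 and 7.09 in KO VAT, against 6.05, 6.72, 6.80 and 6.44 in WT VAT. Btg2 had 7.11, 6.77, 7.32 and 7.09 in KO SAT, against 6.38, 6.23, 6.52 and 6.38 in WT SAT, with no overlap in SAT. Ier2, a nuclear protein of the same early wave, ran from 5.99 to 6.26 on the KO arrays and from 5.86 to 6.33 on the WT arrays, the narrowest range of the 10.

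The comparison of the knockout with WT over both depots asks whether these genes differ in level between the genotypes. The knockout differs from WT by the Cre as well as by the deletion of Sucnr1, and these cannot be told apart. The deletion itself was not measured. Of the 10 genes, 8 rose in KO and 0 fell (limma, Benjamini-Hochberg adjusted p under 0.05 over all genes), where 22.5% of all genes were higher, and 43.3% of the 6660 genes at least as bright as Ier2. Jun rose by 0.72 ± 0.12 on the log2 scale (SE; adjusted p = 0.000563), Egr1 by 0.57 ± 0.10 (adjusted p = 0.000876) and Fosb by 0.52 ± 0.16 (adjusted p = 0.0158). Btg2 rose by 0.51, Junb and Jund by 0.46 each, Dusp1 by 0.39 and Fos by 0.31 (adjusted p = 0.0481). Ier2, at 0.06 ± 0.06 (adjusted p = 0.399), and Atf3, at -0.18 ± 0.12 (adjusted p = 0.237), did not pass. The median of the 10 was 0.46, against 0.22 over the 6660 genes at least as bright as Ier2. Several of the 10 lie far above that floor, and genes matched to them in brightness were not compared.

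With array spread as a term in the model, none of the 8 rises passed: Junb turned to -0.11, Fosb came to 0.05, Egr1 to 0.17, Fos to 0.19, Jun to 0.30 and Btg2 to 0.38. Atf3 then fell by 0.63 (adjusted p = 0.0129). Spread and genotype overlap in these arrays, so how much of each difference belongs to either cannot be told apart from 16 arrays. After quantile normalization 5 of the 10 passed, with Jun at 0.48, Junb at 0.38, Egr1 at 0.34 and Btg2 at 0.31 higher and Atf3 lower at -0.42. Within day 2 alone 4 genes passed and within day 1 alone 8, and all 8 rises kept their sign on each day: on day 2 Jun was at 0.61, Egr1 at 0.41 and Fos at 0.20, and on day 1 Jun was at 0.84, Egr1 at 0.72 and Fos at 0.43. Without WT VAT pools 1 and 2, whose spread was smallest in that group, 5 genes passed. The Fos call was also lost on leaving out any of 12 single arrays, where its difference lay between 0.24 and 0.33.

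**Figure D2:**
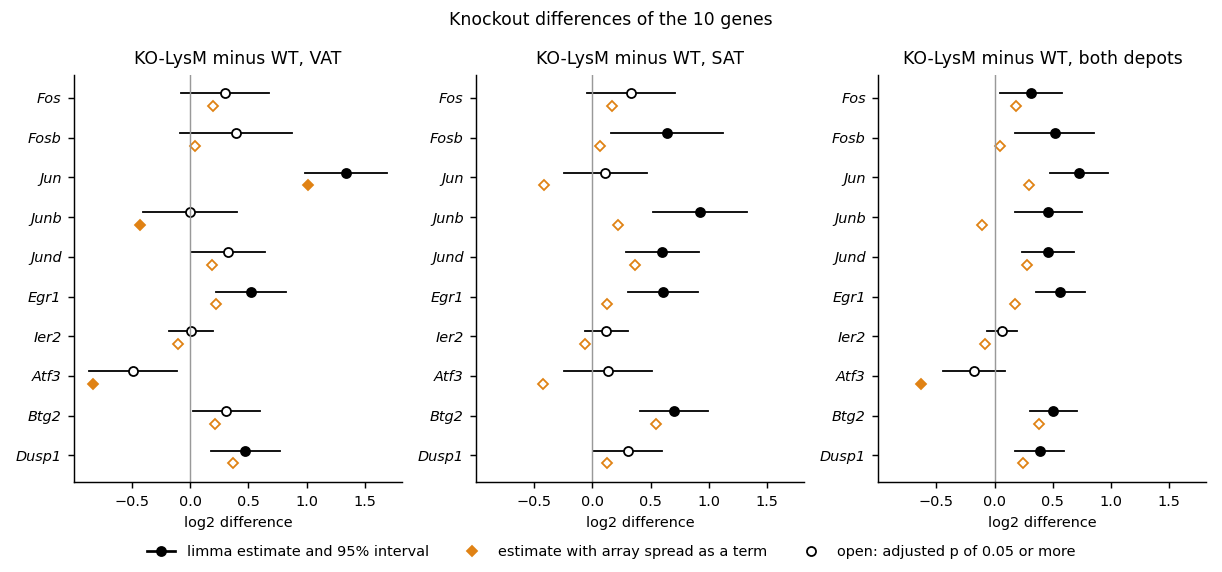
Log2 difference of KO-LysM minus WT for each of the 10 genes in VAT, in SAT and over both depots. Black circles are limma estimates with 95% intervals, orange diamonds are estimates with array spread as a term, and open symbols have an adjusted p of 0.05 or more. Jun in VAT is at 1.34 and stays past the threshold at 1.01 with the spread term, while Junb over both depots turns from 0.46 to -0.11.

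In SAT, 5 of the 10 genes rose in KO and 0 fell, where 16.7% of all genes and 31.8% of the genes at least as bright as Ier2 were higher. Junb rose by 0.93 ± 0.19 (SE; adjusted p = 0.00362), Btg2 by 0.70 ± 0.14 (adjusted p = 0.00274) and Fosb by 0.64 ± 0.23 (adjusted p = 0.0381). Egr1 rose by 0.61 and Jund by 0.60. A dimmer probe set of Jund went the other way in SAT, at -0.40 (limma adjusted p = 0.0166). That of Btg2 was at 0.17 and did not pass (adjusted p = 0.401). Fos at 0.33, Dusp1 at 0.30, Atf3 at 0.14, Ier2 at 0.12 and Jun at 0.11 did not pass. None of the 5 rises passed with array spread as a term, where they lay between 0.06 (Fosb) and 0.55 (Btg2). The Fosb call was also lost with pool number as a replicate block (adjusted p = 0.056).

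In VAT, 3 of the 10 genes rose in KO and 0 fell, where 10.2% of all genes and 19.2% of the genes at least as bright as Ier2 were higher. Jun rose by 1.34 ± 0.17 (SE; adjusted p = 0.000197), which is 2.53-fold, Egr1 by 0.52 ± 0.14 (adjusted p = 0.025) and Dusp1 by 0.47 ± 0.14 (adjusted p = 0.0354). With array spread as a term Jun passed at 1.01, while Egr1 at 0.22 (adjusted p = 0.203) and Dusp1 at 0.37 (adjusted p = 0.168) no longer did. Fosb at 0.39, Jund at 0.33, Btg2 at 0.31, Fos at 0.30 and Ier2 at 0.01 did not pass, nor did Junb, whose means were 6.35 in both groups, although Junb passed as lower at -0.43 with array spread as a term (adjusted p = 0.0274). Atf3 was at -0.49 ± 0.18 (adjusted p = 0.068), and passed as lower with array spread as a term (-0.83), after quantile normalization (-0.74) and without WT VAT pool 1 (-0.67).

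The count in VAT rested on single arrays. It was 6 without WT VAT pool 4, where Fos, Fosb and Jund passed too, 2 (Jun and Atf3) without WT VAT pool 1, and 1 without KO VAT pool 1 or pool 2. Jun passed on leaving out each array in turn and on each day alone, at 1.09 on day 2 and 1.59 on day 1.

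Jun was also the gene whose knockout difference changed with the depot. The difference in VAT minus that in SAT was 1.23 ± 0.24 (SE; adjusted p = 0.00612), and 4.22% of all genes passed this test in either direction. It was 1.44 with array spread as a term and 1.40 after quantile normalization, both past the threshold. It did not pass with no day term (adjusted p = 0.0665) or with the mean of both Jun probe sets, at 0.81 (adjusted p = 0.0755). It was 0.97 on day 2 alone (adjusted p = 0.0483) against 1.49 on day 1 alone (adjusted p = 0.0577). Junb went the other way at -0.93 ± 0.27 without passing (adjusted p = 0.0707), and Atf3 at -0.63 did not pass either. Junb passed at -0.65 with array spread as a term, at -1.05 without WT SAT pool 2 and at -1.08 without WT VAT pool 1. In WT, Jun fell by 0.86 ± 0.17 in VAT relative to SAT (adjusted p = 0.0119), the 1 call among the 10, where 2.84% of all genes passed. That call was lost with no day term (adjusted p = 0.108), with the WT arrays alone (adjusted p = 0.232), on day 1 alone (adjusted p = 0.0571) and with the dimmer Jun probe set, which was at -0.52 (adjusted p = 0.282). In KO, Atf3 fell by 0.94 ± 0.18 in VAT relative to SAT (adjusted p = 0.00555), again the 1 call among the 10, where 4.32% of all genes passed, and was lost on day 2 alone (adjusted p = 0.103) and on day 1 alone (adjusted p = 0.0762). These comparisons share their arrays with the knockout comparisons and are not separate evidence.

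Genes of neighbouring tissues moved against the depot labels, so the knockout groups were also set against the WT group of the other depot. Svs4, a secretion gene of the seminal vesicle, averaged 3.76 ± 0.07 in KO VAT and 3.79 ± 0.06 in WT VAT, but 11.44 ± 0.32 in KO SAT and 4.76 ± 1.70 in WT SAT (SD, n = 4 each). Skeletal muscle genes, summed, lay between 8.84 and 9.72 in KO VAT and between 7.70 and 8.12 in WT VAT, and between 7.62 and 7.89 in KO SAT and between 10.93 and 11.90 in WT SAT. In KO SAT minus WT VAT, 3 of the 10 genes rose, namely Jun by 0.97, Dusp1 by 0.69 and Btg2 by 0.57. Of all 17097 genes, 6.89% passed in either direction and 806 passed as higher. The median over genes at least as bright as Ier2 was 0.20. In KO VAT minus WT SAT, 6 rose and 1 fell, where 39.3% of all genes passed in either direction and 3131 passed as higher. The median over genes at least as bright as Ier2 was 0.23 there. Egr1 rose by 0.87, Fosb by 0.69, Junb by 0.55, Jun by 0.48, Btg2 by 0.44 and Jund by 0.42, and Atf3 fell by 0.81. By their brighter probe sets, Jun and Btg2 were thus higher in each knockout group than in the WT group of the other depot. Their dimmer probe sets did not pass in either comparison. In KO VAT minus WT SAT the dimmer Jun probe set was at 0.07 and that of Btg2 at 0.01. In KO SAT minus WT VAT they were at 0.73 (limma adjusted p = 0.0506) and 0.10. Whether labels or dissection differ was not tested.

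Day 2 arrays read higher than day 1 arrays for every one of the 10 genes, and 6 of them rose, where 17.2% of all genes and 36% of the genes at least as bright as Ier2 did. Jun rose by 0.46 ± 0.12 (SE; adjusted p = 0.0152), Junb by 0.45 ± 0.13 (adjusted p = 0.0253) and Fos by 0.45 ± 0.12 (adjusted p = 0.0212). Jund rose by 0.37, Atf3 by 0.36 and Dusp1 by 0.34, while Fosb at 0.30, Btg2 at 0.25, Egr1 at 0.20 and Ier2 at 0.17 did not pass. None of the 10 passed with array spread as a term, after quantile normalization or without WT VAT pools 1 and 2, and Egr1 turned to -0.11 and -0.05 in the first and the second of these, Fosb to -0.07 in the first. The labels do not say what the day counts, and isolation, hybridisation and scan cannot be told apart by it.

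The day difference was uneven over the groups for some of the genes. In WT VAT it was 1.04 for Junb, 0.87 for Fosb, 0.85 for Jun, 0.70 for Egr1 and 0.70 for Atf3. In WT SAT it was -0.06 for Junb, -0.21 for Fosb, 0.32 for Jun, 0.01 for Egr1 and 0.05 for Atf3. Fos at 0.57, Dusp1 at 0.45 and Btg2 at 0.24 in WT VAT were closer to WT SAT, where Fos was at 0.56, Dusp1 at 0.45 and Btg2 at 0.14. In the KO groups the day difference lay between -0.01 (Egr1) and 0.46 (Fos) in KO VAT and between 0.10 (Ier2) and 0.50 (Junb) in KO SAT. The test of the day difference in KO minus that in WT, over both depots, passed for 0 of the 10 genes and for 0% of all genes, with 335 of all genes at an unadjusted p under 0.05 and none of the 10 among them. The difference between WT VAT and WT SAT in this respect was not tested.

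**Figure D3:**
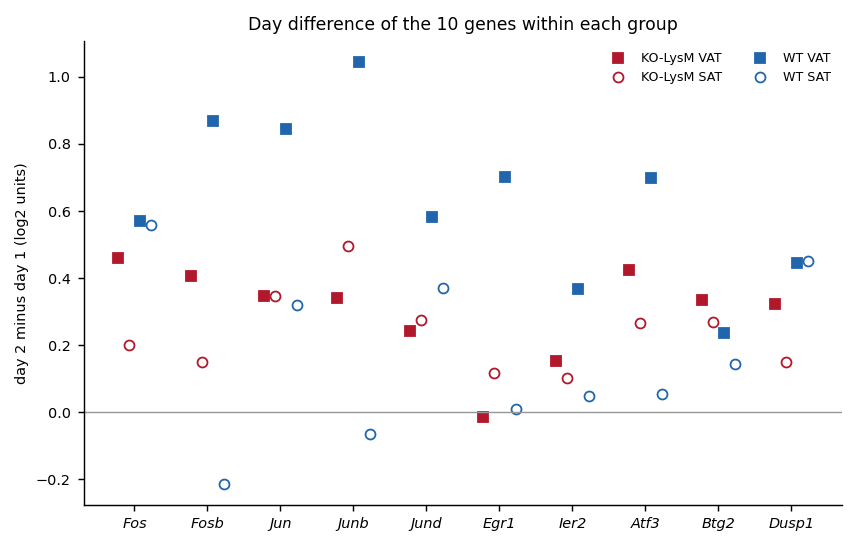
Difference of day 2 minus day 1 (log2 units, 2 arrays each) for each of the 10 genes within KO-LysM VAT, KO-LysM SAT, WT VAT and WT SAT. The WT VAT squares are highest for 8 of the 10 genes and reach 1.04 for Junb, while WT SAT is at -0.21 for Fosb.

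Over the arrays, the mean of the 10 genes rose with array spread. It was 7.53 in WT VAT pool 1 at a spread of 2.006 and 8.65 in KO SAT pool 3 at 2.61. The correlation was r = 0.92 (Spearman's rho = 0.92) over 16 arrays, r = 0.84 (rho = 0.83) over the 8 KO arrays and r = 0.87 (rho = 0.90) over the 8 WT arrays. Without the 2 arrays farthest from the median spread, r was 0.90 over the remaining arrays. These are given as descriptions, since all values of an array share its spread.

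**Figure D4:**
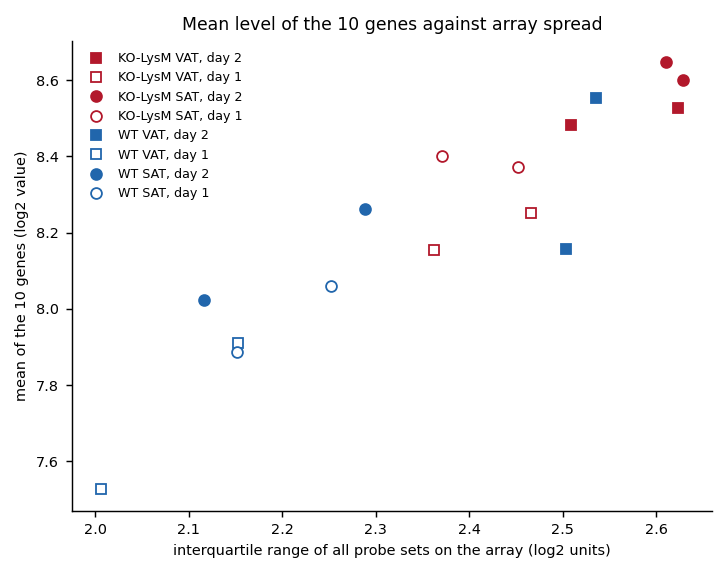
Mean log2 value of the 10 genes against the interquartile range of all probe sets (log2 units), 1 point per array; colour gives genotype, shape the depot, and filled points are day 2. Points climb from WT VAT pool 1 at 2.006 and 7.53 to KO SAT pools 3 and 4 at 2.61 and 2.629.

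The genes differed in how far they followed the rest. Jund correlated best with the mean of the other 9 over the 16 arrays (r = 0.92), then Fos (0.81), Fosb (0.81) and Dusp1 (0.80), and Atf3 least (0.31). Among pairs, Fos and Dusp1 were most alike (r = 0.93) and Egr1 and Atf3 least (r = -0.15). The genes outside the 10 most like their standardised mean were Numa1 (r = 0.99), Capza2 (0.98), Rnaset2b (0.97), Wasf2 (0.97), Xbp1 (0.97), Rffl (0.97), Mgat5 (0.97), Cript (0.97), Atg3 (0.97) and Acp2 (0.97). These 10 correlated with array spread at r between 0.86 and 0.96. For Fos alone the most alike were Tpd52 (0.93), H2-M3 (0.93), Sun2 (0.92), Hbp1 (0.92) and Hsd17b11 (0.91).

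Jun, Jund and Btg2 have a 2nd, dimmer probe set, and these did not all tell the same story. The dimmer Jun probe set had 6.59, 6.30, 6.86 and 6.64 in KO VAT, against 5.35, 5.66, 5.99 and 7.03 in WT VAT. Its knockout difference in VAT was 0.59 (adjusted p = 0.0729), and its difference between depots was 0.39 (adjusted p = 0.699), so the depot call of Jun rests on the brighter probe set. The dimmer Jund probe set went the other way, and fell by 0.35 in KO over both depots (adjusted p = 0.00348), against the rise of 0.46 of the brighter one. That probe set had 5.95, 6.0, 5.83 and 5.78 in KO VAT, against 6.54, 6.40, 6.05 and 5.80 in WT VAT, so its WT VAT values were in the reverse order of the brighter probe set. The dimmer Btg2 probe set was at 0.05 in KO over both depots (adjusted p = 0.712), where the brighter one rose.

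**Figure D5:**
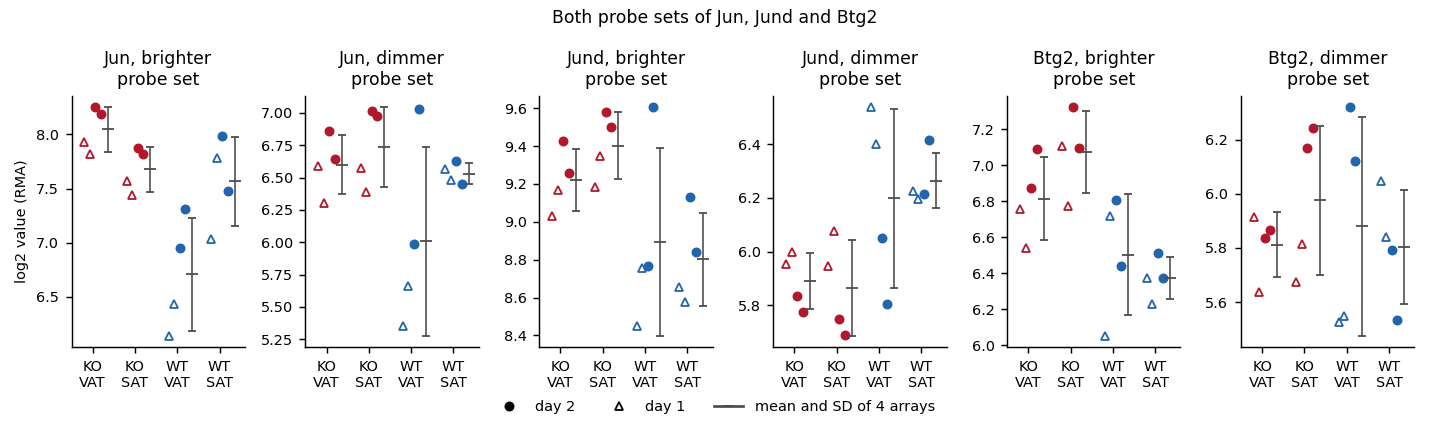
Log2 values (RMA) of both probe sets of Jun, Jund and Btg2 on the 16 arrays by group; filled circles are day 2, open triangles day 1, bars the mean and SD of 4 arrays. Scales differ and do not start at 0. The dimmer Jund probe set is lower in KO, by 0.35 over both depots, where the brighter one is higher.

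Other genes of the same response were counted in lists, over both depots for KO minus WT, beside the 22.5% of all genes and the 43.3% of genes at least as bright as Ier2 that were higher. The shares that rose in the first lists, 6 of 14 and 7 of 21, were at or below the share of the bright genes. The lists had no brightness floor of their own, and genes matched to them in brightness were not compared. Of 14 AP-1 and related zipper partners, 6 rose and 1 fell, with Fosl2 at 0.72, Atf2 at 0.60 and Maff at 0.58 higher and Batf3, a factor of dendritic cells, lower at -0.38. Of 21 other immediate early factors, 7 rose and 1 fell, with the zinc finger factor Egr2 at 0.80, Klf4 at 0.67 and Klf10 at 0.62 higher and Egr3 lower at -0.39. Of 27 effector and feedback genes measured, 17 rose and 0 fell: Nfkbiz, a nuclear partner of NF-kB, was at 1.46, Ptgs2, the inducible cyclooxygenase, at 1.45, the mRNA decay factor Zfp36l1 at 0.78 and the kinase Sgk1 at 0.60. After quantile normalization the counts were 5 up and 3 down, 5 up and 5 down, and 11 up and 2 down in these 3 lists. With array spread as a term they were 0 up and 3 down, 1 up and 2 down, and 1 up and 2 down.

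Over both depots, feedback genes of the MAP kinase pathway stood higher in KO too. Of 12 phosphatase and feedback genes measured, 7 rose and 0 fell, with the ERK phosphatase Dusp6 at 1.29 ± 0.13 (SE; adjusted p = 4.61e-05), Spred1 at 1.08, Dusp16 at 0.82 and Spry4 at 0.53. Of 18 MAP kinase and serum response factor genes measured, 8 rose and 0 fell, a share close to the 43.3% of bright genes, among them Mapk9 at 0.64, Elk3 at 0.58, Srf at 0.52 and Mapkapk3 at 0.42. All 9 heat shock genes measured rose, with the cochaperones Dnajb4 at 0.87, Dnaja1 at 0.44 and Dnajb1 at 0.41 and the mitochondrial Hspe1 at 0.34. The medians of these lists were 0.47, 0.33 and 0.40, against 0.22 over genes at least as bright as Ier2. No brightness floor was set for the lists, so the sets compared are unlike. With array spread as a term the counts over both depots were 3 up and 1 down, 0 up and 4 down, and 0 up and 0 down. In SAT alone, without that term, 7, 4 and 2 genes of these lists rose and 0 fell, beside 31.8% of the bright genes higher. In VAT alone 5, 3 and 4 rose and 0 fell, beside 19.2%. The values over both depots for Spry4 and Dnajb4 are means of unlike depot differences, given below.

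The depots differed for several of these genes. The knockout difference in VAT minus that in SAT was -1.97 for Spry4 (adjusted p = 6.72e-05), -0.92 for Egr2 (adjusted p = 0.0112), -1.23 for the zipper gene Creb5 and -1.90 for Ccn2, a matrix protein gene. It was -1.41 for Id1, an inhibitor of helix-loop-helix factors, -0.79 for the interferon factor Irf1 and -0.56 for the cell cycle inhibitor Cdkn1a, which passed as well. It was 1.68 for Dnajb4 (adjusted p = 0.00258) and 0.71 for Dusp16. Of the 27 effectors, 0 passed as higher and 4 as lower in this test of the depots (limma; 10 at an unadjusted p under 0.05 in either direction), and Ptgs2, at 2.28 for KO VAT minus WT VAT (adjusted p = 0.00164), was thus not shown to differ between depots. On day 2, 8 of the 14 zipper partners, 9 of the 21 factors, 8 of the 27 effectors, 5 of the 12 feedback genes, 8 of the 18 kinase genes and 3 of the 9 heat shock genes rose and 0 fell, beside 17.2% of all genes and 36% of the genes at least as bright as Ier2. Klf4 at 0.53, Maff at 0.54, Dusp6 at 0.52 and Dnajb1 at 0.42 were among them.

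Marker genes of the cells in the pools moved with the same comparisons. Of 10 macrophage markers, 9 were above background in every group (Cd163 was not), and 0 rose and 3 fell in KO over both depots. Their summed log2 level ran from 11.76 to 12.38 in KO VAT and 12.39 to 12.88 in KO SAT, against 12.19 to 12.81 in WT VAT and 12.69 to 13.04 in WT SAT. Lyz2, whose promoter drives the Cre, is among the 3 macrophage markers that fell, at 0.61 ± 0.10 lower (SE; limma adjusted p = 0.000573). Only the knockout carries the Cre, so a change of Lyz2 from the Cre itself cannot be told apart from other changes. Of 7 T cell markers measured 6 fell, of 6 B cell markers 4 fell, and of 7 skeletal muscle genes all 7 fell, while 5 of 10 stromal, 2 of 7 endothelial and all 6 seminal vesicle genes rose. Of all 17097 genes, 3841 rose and 4990 fell over both depots. The 3 of 10 macrophage markers that fell are close to the latter share. In VAT, 0 T cell, 0 B cell, 0 endothelial and 0 seminal vesicle genes passed (limma; 2, 1, 2 and 1 of them at an unadjusted p under 0.05), and 5 muscle genes and 1 stromal gene rose. Among all genes, 1740 rose and 984 fell in VAT. In SAT, 7 T cell, 4 B cell and 7 muscle genes and 1 stromal gene fell, and 7 stromal, 3 endothelial and 6 seminal vesicle genes rose. Among all genes, 2859 rose and 3420 fell in SAT. The difference between depots passed for 5 T cell, 4 B cell and all 7 muscle genes as higher in VAT, and for all 6 seminal vesicle genes as lower. It also passed for 1 stromal gene as higher, and for 3 stromal and 2 endothelial genes as lower. Among all genes, 359 passed as higher and 363 as lower in this difference between depots. The summed stromal level ran from 12.12 to 12.30 in KO VAT and 11.69 to 12.04 in KO SAT, against 11.45 to 12.51 in WT VAT and 11.15 to 11.64 in WT SAT. The summed endothelial level ran from 8.62 to 10.03 in KO VAT and up to 10.44 in KO SAT (mean 10.24), against 8.80 to 10.09 in WT VAT and 8.80 to 9.18 in WT SAT. All 6 mast cell markers were under the background in every group. In such bulk pools, more cells of a type and more RNA per cell cannot be told apart, and the part of these cells in the levels of the 10 genes was not tested.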

How the data were processed

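Adipose tissue macrophage RNA was measured on 16 single-channel arrays, 1 per pool. The authors deposited 1 log2 value per probe set and array, computed by RMA (affy package) according to the submitters' processing notes, and the versions are not given in the sources used here. RMA equalises probe distributions before summarising, and the summaries still differed in spread between arrays. Of 45141 probe sets, 104 were controls and 28898 carried 1 gene symbol in the platform annotation, 551 carried several and 15588 were unnamed. The probe set with the highest mean stood for each of 17097 genes. Groups were compared with limma 3.58.1 (R 4.3.3), with terms for the 4 groups and day, all 16 arrays in 1 model and no filter. P-values were two-sided, Benjamini-Hochberg adjusted over all genes, with a threshold of 0.05. The model was run on simulated data with noise drawn separately for each gene. That simulation held no difference in array spread, so it does not check the calls against such a difference. Array spread was compared in Python 3.11.15 with scipy 1.17.1.

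The 10 genes, the other gene lists and the tests were chosen with earlier results of these data known, so none of the counts is independent evidence. Genes outside the 10 were taken from the 4 of smallest p in each list and comparison. For likeness, the 10 genes of highest correlation with the standardised mean and the 5 of highest correlation with Fos were named, among genes outside the dimmest 40%. Sucnr1, Lyz2 and Svs4 served as checks. The labels number the pools of a group and do not say that they held different mice, so p-values measure the spread between these pools. Precision rests on the 4 arrays of a group, and signal under the 95th percentile of olfactory receptor genes was taken as background. Pool numbers occur in every group. Deviations of the 24 same-number pairs correlated between -0.48 and 0.63 (median 0.35). Those of the 24 other-number pairs of the same day correlated between -0.58 and 0.72 (median 0.24). Most of these pairs join unlike genotypes, which cannot share mice. Between SAT and VAT of 1 genotype, same-number pairs lay between 0.17 and 0.59 in KO and between -0.48 and 0.47 in WT. Other-number pairs of the same day lay between 0.06 and 0.50 in KO and between -0.58 and 0.54 in WT. Sharing of mice between depots was not settled by these values, and the main model did not pair samples. The pool block joins all 4 groups of a number, so it does not test such pairing. The alternatives were no day term, pool number as a block, each day alone, the compared groups alone, a filter of the dimmest 40% of probe sets, the mean of all probe sets, quantile normalization, array weights, array spread as a term, the WT group of the other depot, and each array left out in turn.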

Additional observations from a re-analysis of the deposited data

Results flagged for a closer look

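For Jun, the leucine zipper partner of Fos, the knockout difference was not alike in the depots by the interaction test of limma. The difference in VAT minus that in SAT was 1.23 on the log2 scale (95% interval 0.73 to 1.73, adjusted p = 0.00612). Each KO VAT array was above each WT VAT array, while the genotypes overlapped in SAT. How many of all genes separate the groups in this way was not counted. The dimmer Jun probe set gave 0.39 for the difference in VAT minus that in SAT (limma adjusted p = 0.699). The call was lost with no day term (adjusted p = 0.0665) and with the mean of both Jun probe sets, at 0.81 (adjusted p = 0.0755). No array stood apart from the other 3 of its group for any of the 10 genes in the 40 sets of 4 arrays examined, by Dixon's 95% critical value.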

How the results depend on the processing

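The counts of the 10 genes past the threshold were 8 for KO minus WT over both depots, 5 in SAT, 3 in VAT, 1 for VAT minus SAT of that difference, 1 each for VAT minus SAT within KO and within WT, and 6 for day 2 minus day 1. After quantile normalization they were 5 over both depots, 3 in SAT, 2 for the difference between depots, 2 within KO, 2 within WT and 0 for day. With array spread as a term they were 1, 0, 2, 4, 2 and 0 in that order, and Junb over both depots turned to -0.107. On day 2 alone they were 4 over both depots, 3 in SAT, 1 in VAT, 2 for the difference between depots, 0 within KO and 3 within WT. On day 1 alone they were 1 in SAT, 5 in VAT and 0 for the last 3 of these. With no day term they were 1 in VAT and 0 for the difference between depots and within WT. With the compared groups alone they were 1 in VAT, 3 within KO and 0 within WT. The mean of all probe sets gave 0 and array weights gave 2 for the difference between depots, and array weights gave 3 within KO. Against the WT group of the other depot the counts were 3 for KO SAT and 7 for KO VAT, where Junb was at 0.552, while its means in KO VAT and WT VAT were both 6.35. The next 3 alternatives were chosen after seeing the data. Without WT VAT pools 1 and 2 the counts were 5 over both depots, 4 for the difference between depots, 4 within WT and 0 for day. Without WT VAT pools 3 and 4 they were 5 in VAT and 2 for day. The other probe set of Jund was at -0.353 over both depots, -0.398 in SAT and -0.225 for day. On leaving out each array in turn the counts ran from 7 to 8 over both depots, from 4 to 5 in SAT, from 1 to 6 in VAT, from 1 to 3 for the difference between depots, from 1 to 3 within WT and from 4 to 9 for day, and stayed at 1 within KO and at 0 for day in KO minus day in WT. The highest count for the difference between depots and within WT came without WT VAT pool 1, and that of day without WT SAT pool 4. With pool number as a replicate block the counts were 8 over both depots, 4 in SAT, 3 in VAT and 1 for the other 3 comparisons, and Fosb in SAT was the only call of the 10 genes lost. The filter on dim probe sets and the test of day by genotype changed no count past 1.5 times. The cause of these changes was not tested.

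The share of all genes passing moved as well. It was 51.65% over both depots, against 7.91% with array spread as a term, 25.03% on day 2 alone and 30.6% without WT VAT pools 1 and 2. In SAT it was 36.7%, against 3.40% to 50.5% over all settings, and in VAT 15.9%, against 1.94% to 47.5%. It was 4.22% for the difference between depots (1.93% to 16.4%), 4.32% within KO (1.16% to 12.9%), 2.84% within WT (0.351% to 25.4%) and 28.3% for day (1.19% to 45.1%). The spread of arrays as SD in place of interquartile range differed between KO and WT by 0.119 (exact permutation test, two-sided, p = 0.0168), against 0.252 (exact permutation test, two-sided, p = 0.007). Sucnr1 was under the background, so the deletion was not measured, and 2 arrays per group and day limit every value given by day. Nothing in the labels ties pools to animals shared between depots.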
